A study of Mus musculus with 8 samples.

Results

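The 2 H3K4me3 libraries and the 2 H3K36me3 libraries of tumor isografts were compared along genes, from 5 kb upstream of the transcription start site (TSS) to 5 kb past the gene end. They are 4 of the 8 libraries of the series, chosen by antibody, and each mark has 1 library from LLC-NR tumors and 1 from LLC-R tumors. Both lines derive from Lewis lung carcinoma, a lung tumor of C57BL/6 mice. LLC-NR is drug sensitive, and LLC-R is the line made resistant to VEGF-Trap, a soluble receptor that binds VEGF, by rounds of selection in treated mice. Cells of each line were grown under the skin of female C57BL/6J mice, so the tissue is a flank tumor that also holds host cells, although the labels give its tissue as lung. Chromatin of the tumors was cut with micrococcal nuclease to nucleosomes, which were precipitated with an antibody against 1 mark, and the DNA was sequenced. The deposited peaks are nucleosome-sized positions without height or strand, in mm9. There was 1 library per line and mark, so the spread between the 2 libraries of a mark includes the difference between the lines, and no replicate spread is known. Where a pair of values stands without line names, LLC-NR comes first and LLC-R second.

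H3K4me3 is laid down around active and poised TSSs by the SET1 and MLL methyltransferase complexes, some of which hold a CXXC domain that binds unmethylated CpG. H3K36me3 is laid down across transcribed gene bodies by Setd2, which travels with the elongating RNA polymerase II. The place in a gene where the first mark gives way to the second is called the handover here.

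Genes were classed by the CpG content of their promoters, since most CpG-rich promoters are CpG islands. A high-CpG promoter (HCP) holds an interval of 500 bp with a CpG observed to expected ratio (CpG O/E) of 0.6 or more and a G+C content of 55% or more. A low-CpG promoter (LCP) holds no interval with a ratio of 0.4 or more, and the others are intermediate (ICP). Of 21418 protein-coding genes on chromosomes 1 to 19, 11702 had an HCP, 3648 an ICP and 6068 an LCP. The 200 bases upstream of 2 genes described further on show how different the sequence under the marks was. They are Cpeb2, at chr5:43624502-43624701 on the plus strand, and Kng2, at chr16:23029091-23029290 on the minus strand (NCBIM37, the assembly of mm9). Each runs 5′ to 3′ up to the base before the TSS, and capitals mark CpG dinucleotides.
Cpeb2 (HCP): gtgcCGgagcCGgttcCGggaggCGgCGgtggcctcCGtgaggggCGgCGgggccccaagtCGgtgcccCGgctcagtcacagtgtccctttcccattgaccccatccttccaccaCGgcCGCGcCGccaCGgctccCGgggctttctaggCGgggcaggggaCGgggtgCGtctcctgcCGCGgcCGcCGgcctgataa
Kng2 (LCP): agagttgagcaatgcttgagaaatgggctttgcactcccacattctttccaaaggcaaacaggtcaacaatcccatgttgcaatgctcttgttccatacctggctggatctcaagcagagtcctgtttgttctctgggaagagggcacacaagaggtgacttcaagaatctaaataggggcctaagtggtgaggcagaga
The Cpeb2 sequence holds 23 CpG at a G+C content of 74.5%, and the Kng2 sequence holds 0 CpG at 47.5%.

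On chromosomes 1 to 19, the H3K4me3 libraries held 5418394 and 5398636 peaks, and the H3K36me3 libraries held 6132117 and 8304603. The H3K36me3 library of LLC-R thus had 1.35 times the peaks of that of LLC-NR, while the H3K4me3 libraries differed by less than 1%. Peaks of a library do not overlap and covered 33.3% and 33.2% of the known bases of the assembly for H3K4me3 and 37.7% and 51.0% for H3K36me3. Every level below is the number of peak midpoints per base, divided by the mean of the same library, so that 1 is the mean of chromosomes 1 to 19. Because peaks cannot overlap, the highest level a region can reach is 3.01 and 3.02 for H3K4me3, 2.66 for H3K36me3 in LLC-NR and 1.96 for H3K36me3 in LLC-R. Contrasts of H3K36me3 were smaller in LLC-R at the TSS and in gene bodies, and the part of its larger number of peaks in this was not tested. The marker genes of leukocytes all had an H3K4me3 peak within 250 bp of the TSS in at least 1 line (0 of 10 without), as had those of endothelial cells (0 of 7 without), fibroblasts (0 of 8 without) and carcinoma and lung epithelium (0 of 8 without). The same held for neuronal genes (0 of 18 without), so the presence of a peak in these dense libraries did not mark a cell type. Summed over the 10 leukocyte genes, such peaks numbered 14 and 16. The part of host cells in the results below was not tested, and more cells with a mark cannot be told apart from more of the mark per cell.

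Promoters, taken as the stretch between 1 kb before and 0.5 kb after the TSS, held more H3K4me3 and less H3K36me3 than the mean of each library. They make up 1.28% of the bases. H3K4me3 had 1.86% of its peaks there in LLC-NR (exact Clopper-Pearson 95% interval 1.85% to 1.87%) and 1.75% in LLC-R (1.74% to 1.76%). H3K36me3 had 1.09% in LLC-NR (1.08% to 1.09%) and 1.24% in LLC-R (1.23% to 1.24%). The intervals cover counting error only. Both H3K4me3 libraries thus lay above the share of bases and both H3K36me3 libraries below it, with no overlap between the marks. The difference between the mean log2 shares of the marks was 0.64, with p = 0.333 in a two-sided exact permutation test (n = 2 libraries a mark), which is the smallest p that 2 against 2 libraries allow. With every promoter counted for its own gene, the log2 ratio of the H3K4me3 share to the H3K36me3 share was 0.80 and 0.52 (mean 0.66 ± 0.20, SD of the 2 lines). It was above 0 on 19 of 19 chromosomes in both lines, from 0.63 to 0.96 in LLC-NR and from 0.43 to 0.62 in LLC-R.

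The contrast was largest at CpG-rich promoters. The log2 ratio in HCPs was 1.19 and 0.80, in ICPs 0.38 and 0.21, and in LCPs 0.14 and 0.01. Within 250 bp of the TSS of HCP genes, the level of H3K4me3 was 1.82 and 1.70, and that of H3K36me3 was 0.561 and 0.785. In LCP genes the same levels were 0.985 and 0.974 for H3K4me3 and 0.877 and 0.938 for H3K36me3. At HCPs, H3K4me3 was therefore above its library mean and H3K36me3 below it in both lines, while at LCPs all 4 libraries lay between 0.877 and 0.985. The other marks of the series lay between them at HCPs, at 1.02 and 0.974 for H3K9ac and at 1.09 and 0.982 for H3K27me3.

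**Figure D1:**
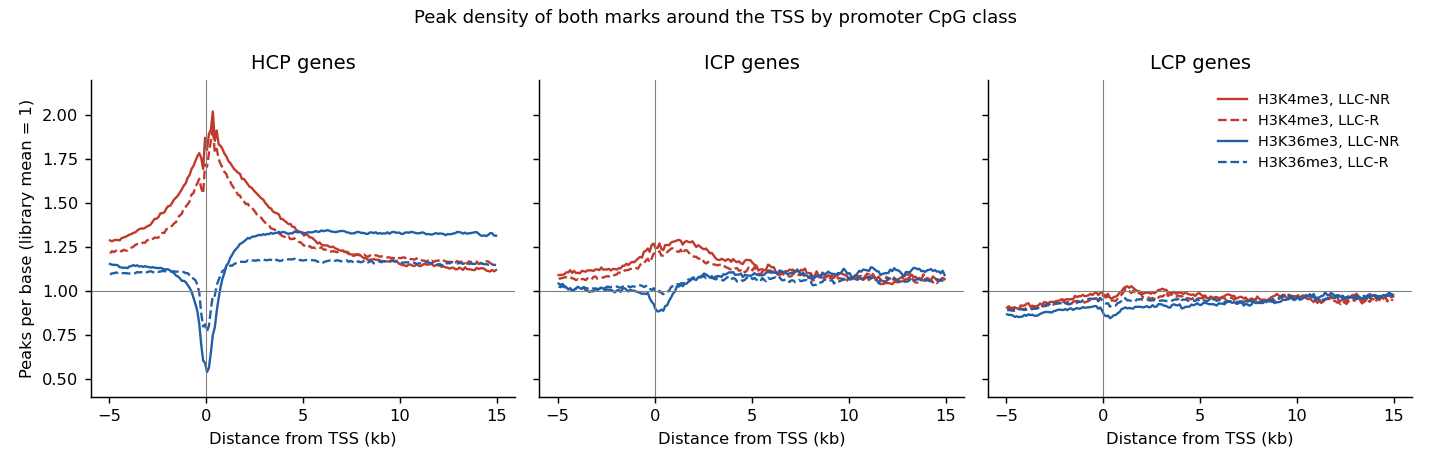
Peaks per base of H3K4me3 (red) and H3K36me3 (blue) in LLC-NR (solid) and LLC-R (dashed) against the distance from the TSS in kb, for HCP, ICP and LCP genes, in bins of 100 bp averaged over 5 bins, using only bases inside the gene downstream of the TSS; the mean of each library is 1. In HCP genes H3K4me3 had its highest level 350 bp downstream of the TSS (2.02 and 1.93) and H3K36me3 its lowest 50 bp downstream (0.54 and 0.771), and the curves of LCP genes stayed near 1.

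Base composition moved with this contrast also where there is no gene. At positions 10 kb or more from any gene, with the G+C content taken over 500 bp, the log2 ratio was 0.03 and -0.04 at a G+C of 35 to 40%. It was 0.47 and 0.17 at 55 to 60%, and 2.0 and 1.26 at 65 to 70%. The level of H3K36me3 there was 0.0943 and 0.175 at 65 to 70%, that of H3K4me3 0.377 and 0.421, that of H3K9ac 0.153 and 0.155 and that of H3K27me3 0.307 and 0.257. All 8 libraries were thus depleted in the most G+C-rich distal sequence, and H3K36me3 of LLC-NR the most. Only 8772 tiles of 50 bp had a G+C of 65 to 70%, so the correction rests on little sequence at the G+C content of the strongest CpG islands. When levels were divided by those of distal positions of the same G+C, H3K36me3 within 250 bp of the TSS of HCP genes came to 1.65 and 1.73, above the mean instead of below it, and H3K4me3 to 2.81 and 2.45. The corrected log2 ratio there was 0.77 and 0.51, against 1.70 and 1.11 as counted. H3K4me3 thus stayed the higher mark at HCPs in both lines under the correction, but the direction of H3K36me3 at the TSS depended on it.

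**Figure D2:**
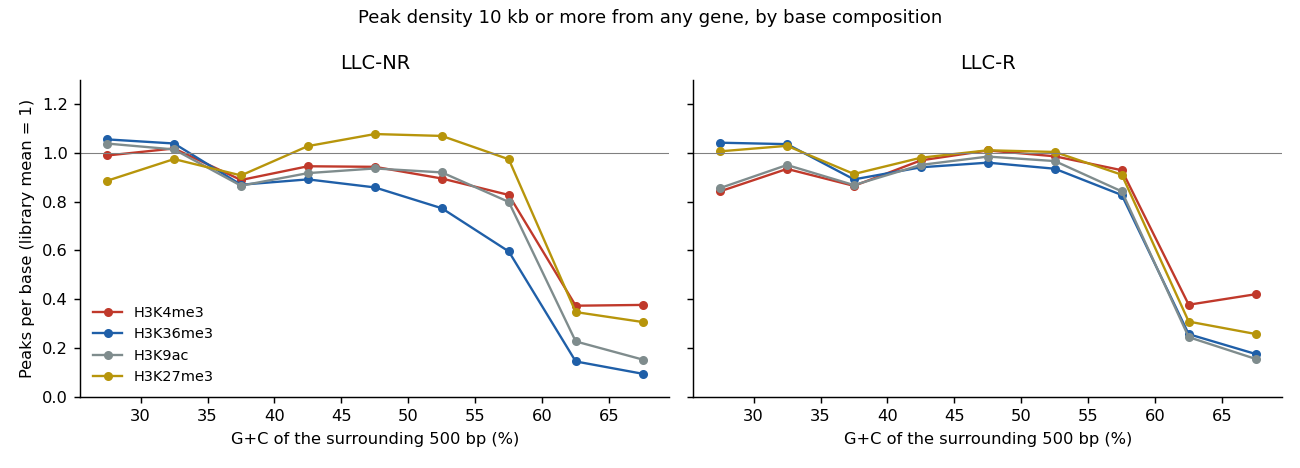
Peaks per base of all 4 marks 10 kb or more from any gene against the G+C content of the surrounding 500 bp in percent, for LLC-NR (left) and LLC-R (right), with the mean of each library at 1. All marks were at 0.421 or lower at 65 to 70% G+C, and H3K36me3 was the lowest in LLC-NR at 0.0943.

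The handover was read from the log2 ratio in bins of 100 bp, averaged over 5 bins. Over all genes the ratio was highest 150 bp downstream of the TSS in both lines, at 1.11 and 0.74. It reached 0, where both marks hold the same share of their peaks, 5.29 kb downstream of the TSS in LLC-NR and 12.4 kb downstream in LLC-R. The ratio of LLC-R ran close to 0 over a long stretch. Between 8 and 10 kb it was -0.12 and 0.03, and from 15 to 20 kb it was -0.18 and -0.01, so the crossing in LLC-R rests on small differences. A second measure, the distance at which the ratio was midway between its highest value and its mean from 8 to 10 kb, does not need that crossing. It was 1.07 kb and 1.24 kb, nearer to the TSS than the crossing in both lines. With the correction for G+C it was 1.88 kb and 2.29 kb, longer by over 1.5 times in both lines. Upstream, the ratio did not reach 0 within 5 kb in either line, and it was midway to its level beyond 4 kb at 0.535 kb and 0.438 kb, closer to the TSS than downstream.

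The marks were not midway at the same distance. In HCP genes, H3K36me3 went from its lowest level of 0.54 and 0.771 to 1.33 and 1.17 between 8 and 10 kb, and it was midway 0.616 kb and 0.341 kb downstream of the TSS. H3K4me3 went from its highest level of 2.02 and 1.93 to 1.18 and 1.2, and it was midway at 2.21 kb and 1.56 kb. H3K36me3 was therefore midway more than 1 kb closer to the TSS than H3K4me3, in 2 of 2 lines. This holds only as counted: corrected for G+C, H3K36me3 of HCP genes had no low point at the TSS and went from 1.65 and 1.73 within 250 bp of it to 1.44 and 1.36 over the first 2 kb and 1.23 and 1.11 in the body. As counted, H3K36me3 was still below its mean where it was midway, at 0.935 and 0.969. At 1 kb both marks lay above their means, with levels in HCP genes of 1.76 and 1.66 for H3K4me3 and 1.15 and 1.14 for H3K36me3. In LCP genes, H3K4me3 was highest at 1.03 and 1.01, and H3K36me3 lowest at 0.846 and 0.911, so the corresponding distances rest on small differences.

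By CpG content, the handover as counted was steeper where CpG was richer, and it lay nearer to the TSS in HCP genes than in the other classes. With the correction for G+C the distances did not have this order in both lines. HCP genes had a highest ratio of 1.77 and 1.17 and were midway at 0.798 kb and 0.876 kb. ICP genes had 0.52 and 0.30 and were midway at 1.98 kb and 1.94 kb, and LCP genes had 0.19 and 0.09 and were midway at 2.51 kb and 1.93 kb. The mean from 8 to 10 kb came only from genes long enough, as few as 8558 of 11702 HCP, 1955 of 3648 ICP and 2383 of 6068 LCP genes. With the correction, the midway distances were 1.69 kb and 2.32 kb in HCP, 2.38 kb and 2.04 kb in ICP and 2.50 kb and 1.90 kb in LCP genes. LLC-NR thus had the same order as before, while in LLC-R HCP genes had the longest distance and LCP genes the shortest. The crossing of 0 lay at 4.83 kb and 12.6 kb in HCP, 6.28 kb and 9.67 kb in ICP and 10.4 kb and 5.93 kb in LCP genes, so its order among the classes was not the same in the lines. Genes were also split into 10 groups of equal size by the CpG O/E of their whole promoter, from 1 kb before to 0.5 kb after the TSS. From group 5, with a median CpG O/E of 0.423, to group 10, with 0.877, the highest ratio went from 0.99 to 2.41 in LLC-NR and from 0.61 to 1.61 in LLC-R. The midway distance went from 1.33 kb to 0.664 kb in LLC-NR and from 1.60 kb to 0.699 kb in LLC-R, lower in each next group in both lines. In the 4 groups with the least CpG the highest ratio was at most 0.46 and the distances had no order. The G+C content of these promoters moved with the groups, from a median of 51.2% in group 5 to 60.3% in group 10. With the correction for G+C, the midway distance was 1.81 kb and 1.85 kb in group 5 and 1.36 kb and 2.34 kb in group 10, with no order by CpG, while the corrected highest ratio was still larger in group 10 (1.14 and 0.73) than in group 5 (0.60 and 0.39).

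The distance also went with the CpG content downstream of the TSS. The HCP genes of 2 kb or more were split into 3 groups of equal size by the number of CpG per 100 bp from 0.5 to 1.5 kb downstream, with medians of 1.2, 2.1 and 4.4. The ratio was midway at 0.641 kb and 0.697 kb in the group with the fewest, at 0.665 kb and 0.699 kb in the next and at 0.978 kb and 1.03 kb in the group with the most. The last group thus had the longer distance in both lines. With the correction for G+C, the first 2 groups were midway at 1.48 kb and 1.94 kb and at 1.51 kb and 2.08 kb. The last was midway at 2.06 kb in LLC-NR but 0.199 kb in LLC-R, and at 0.268 kb for the mean of the lines. Its corrected distance is therefore uncertain. As counted, the distance was also longer with a first exon of 600 bp or more. HCP genes of 5 kb or more with such an exon were midway at 1.08 kb and 1.07 kb, those with a first exon under 150 bp at 0.733 kb and 0.855 kb, those with 150 to 300 bp at 0.739 kb and 0.734 kb and those with 300 to 600 bp at 0.762 kb and 0.826 kb, with no common order in the lines among these 3 groups. With the correction the distances were, from the shortest first exons to the longest, 1.53, 1.66, 1.88 and 1.85 kb in LLC-NR and 2.02, 2.21, 2.65 and 2.62 kb for LLC-R.

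**Figure D3:**
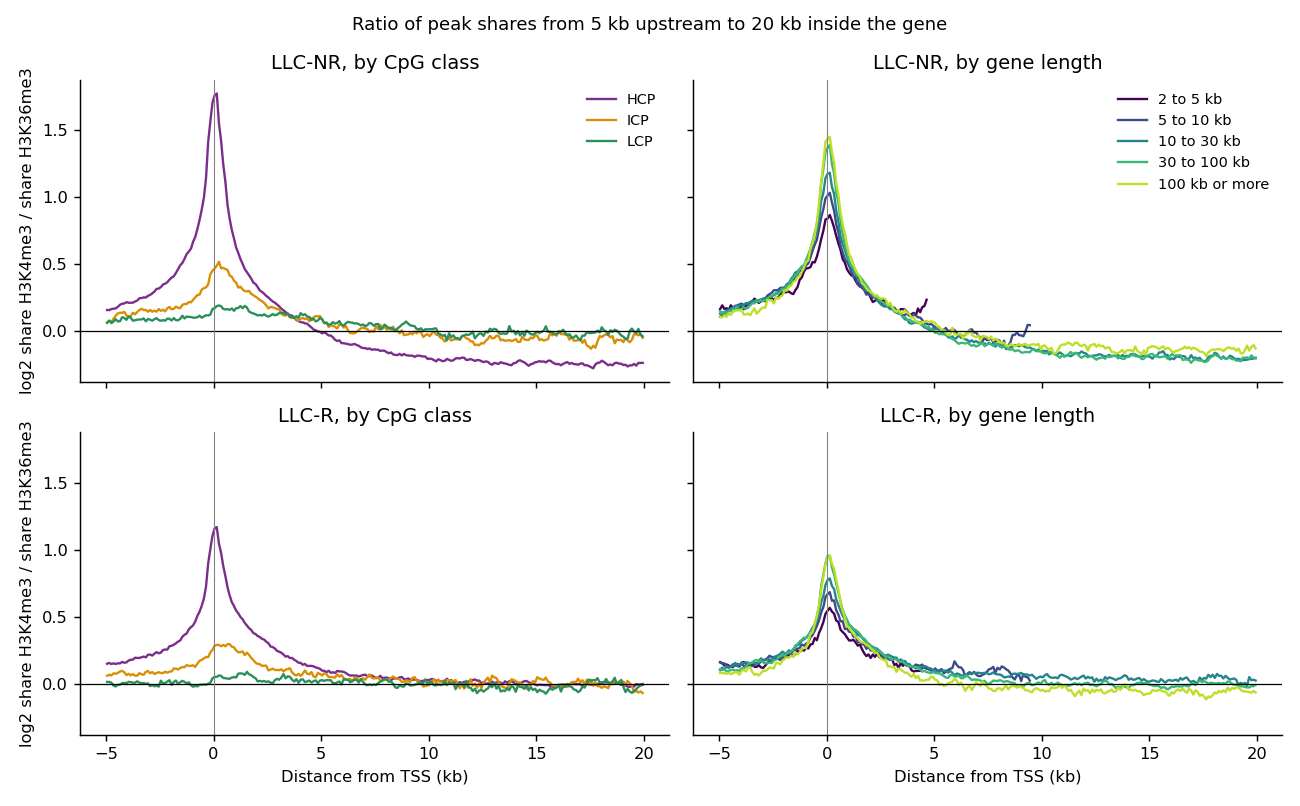
Log2 ratio of the share of H3K4me3 peaks to the share of H3K36me3 peaks against the distance from the TSS in kb, for LLC-NR (top) and LLC-R (bottom), by promoter CpG class (left) and by gene length (right), in bins of 100 bp averaged over 5 bins with 200 genes or more. The curves of HCP genes were highest, at 1.77 and 1.17, and those of the length classes lay close together beyond 1 kb, with LLC-R staying near 0 where LLC-NR was below it.

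By gene length, the distance in kb as counted varied little. Genes of 2 to 5 kb hold no bases from 8 to 10 kb, so for them midway was taken to the mean of the bins nearest to their ends, and their value is not on the same measure as the others. The ratio was midway at 0.85 kb and 0.966 kb in these genes, at 1.02 kb and 1.18 kb in genes of 5 to 10 kb, at 1.01 kb and 1.14 kb in genes of 10 to 30 kb, at 0.878 kb and 0.952 kb in genes of 30 to 100 kb and at 0.916 kb and 0.904 kb in genes of 100 kb or more. Over these 5 classes the mean of the lines ranged from 0.888 kb to 1.05 kb, although median lengths ran from 3.39 kb to 167 kb. As a share of the median length the handover went from 26.2% in the shortest class to 0.546% in the longest. The midway distance is read within 10 kb of the TSS whatever the gene length, so its share of long genes had to be small. It therefore cannot tell a fixed distance from a fraction of the gene. With the correction for G+C, the distances were 1.06 kb and 1.61 kb, 1.5 kb and 1.80 kb, 1.79 kb and 2.23 kb, 1.92 kb and 2.19 kb, and 1.63 kb and 2.43 kb from the shortest class to the longest. They were shorter in both lines in the classes under 10 kb, but these are not on a like measure with the longer ones. In genes of 5 to 10 kb the mean from 8 to 10 kb came from as few as 256 of 2926 genes. The highest ratio was larger in longer genes, 0.87 and 0.57 in genes of 2 to 5 kb against 1.45 and 0.96 in genes of 100 kb or more, and longer genes more often had an HCP. Among HCP genes alone the midway distance was 0.671 kb and 0.792 kb for 2 to 5 kb, 0.805 kb and 0.830 kb for 5 to 10 kb, 0.786 kb and 0.868 kb for 10 to 30 kb, 0.768 kb and 0.787 kb for 30 to 100 kb and 0.819 kb and 0.856 kb for 100 kb or more. With the correction for G+C these became 0.955 kb and 1.63 kb, 1.49 kb and 1.81 kb, 1.66 kb and 2.12 kb, 1.82 kb and 2.25 kb, and 1.99 kb and 2.60 kb, longer in each next class in both lines. Only the classes of 10 kb or more are on a like measure among these. For HCP genes of 5 to 10 kb the mean from 8 to 10 kb came from as few as 202 of 1475 genes. The crossing of 0 was not reached inside genes of 2 to 5 kb in either line, nor in LLC-R in genes of 5 to 10 kb. In genes of 100 kb or more it lay at 5.50 kb and 5.23 kb, the only length class in which the crossings of the lines were within 1 kb of each other.

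**Figure D4:**
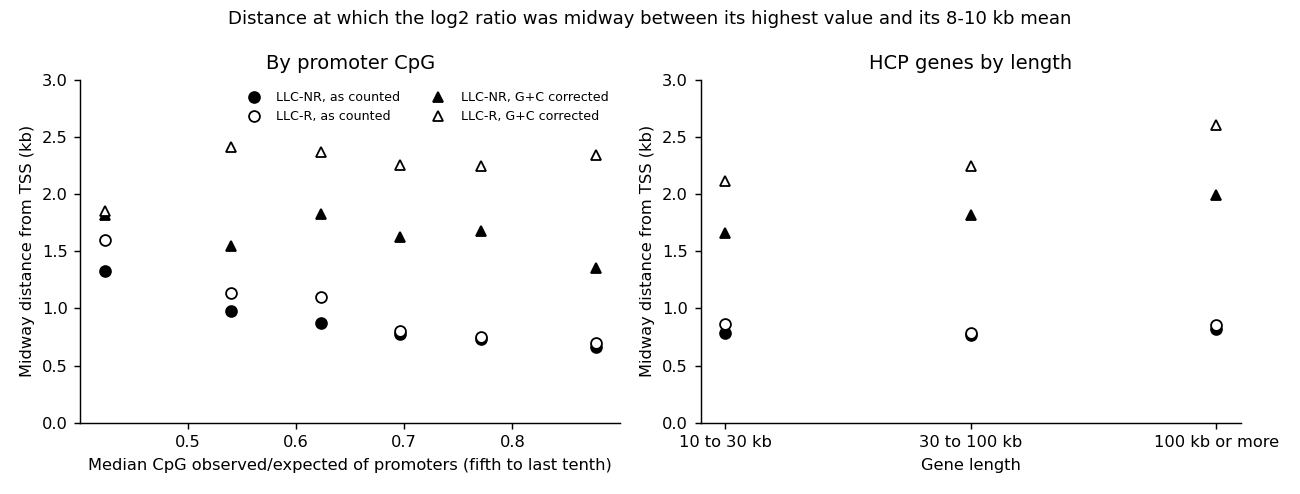
Distance from the TSS in kb at which the log2 ratio was midway between its highest value and its mean from 8 to 10 kb, against the median CpG O/E of promoters for groups 5 to 10 of all genes (left) and by gene length for HCP genes of 10 kb or more (right); filled symbols are LLC-NR, open symbols LLC-R, circles as counted and triangles corrected for G+C. The circles went from 1.33 and 1.60 kb down to 0.664 and 0.699 kb with CpG, while the triangles had no such order with CpG, went up with length and lay between 1.36 and 2.60 kb.

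In gene bodies, from 5 kb downstream of the TSS to the end of the 12896 genes of 10 kb or more, the order of the marks was turned. The log2 ratio was -0.16 and -0.04, below 0 on 19 of 19 chromosomes in both lines. It was -0.20 and -0.04 in HCP genes, -0.05 and -0.02 in ICP genes and -0.05 and -0.04 in LCP genes. The level of H3K36me3 in the bodies of HCP genes was 1.21 and 1.11, and that of H3K4me3 was 1.05 and 1.08. H3K9ac, at 1.12 and 1.11, had the same level there as H3K36me3 in LLC-R, with a log2 ratio of H3K36me3 to H3K9ac of -0.01. In LLC-NR that ratio was 0.11. The log2 ratio of H3K36me3 to H3K27me3 in these bodies was 0.31 and 0.09.

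At the end of HCP genes, H3K36me3 remained above its mean and was lower further out. In LCP genes H3K36me3 lay below its mean on both sides of the end in both lines. It was 0.964 and 0.968 there over the first 1 kb past the end, and 0.882 and 0.892 from 4 to 5 kb past it. In HCP genes the level of H3K36me3 was 1.34 and 1.17 over the last 2 kb of the gene, 1.34 and 1.18 over the first 1 kb past the end and 1.17 and 1.12 from 4 to 5 kb past it. H3K4me3 was 1.21 and 1.22, then 1.23 and 1.25, and then 1.19 and 1.19. The log2 ratio in HCP genes thus went from -0.15 to 0.02 in LLC-NR, and was 0.05 and 0.09 in LLC-R, where H3K4me3 had the larger share on both sides of the end. In genes of 100 kb or more it was below 0 in both lines in the last 2 kb (-0.20 and -0.07) and from 4 to 5 kb past the end (-0.09 and -0.03). In genes of 2 to 5 kb it was above 0 in the last 2 kb (0.26 and 0.22) and remained so past the end (0.16 and 0.13). The last 0.1 kb of the gene had a local gap in all 4 libraries, at 0.956 and 0.862 for H3K4me3 and 1.13 and 0.948 for H3K36me3 in HCP genes, and at 0.889 and 0.782 and at 0.829 and 0.860 in LCP genes. This gap was shared by both marks and is no handover.

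**Figure D5:**
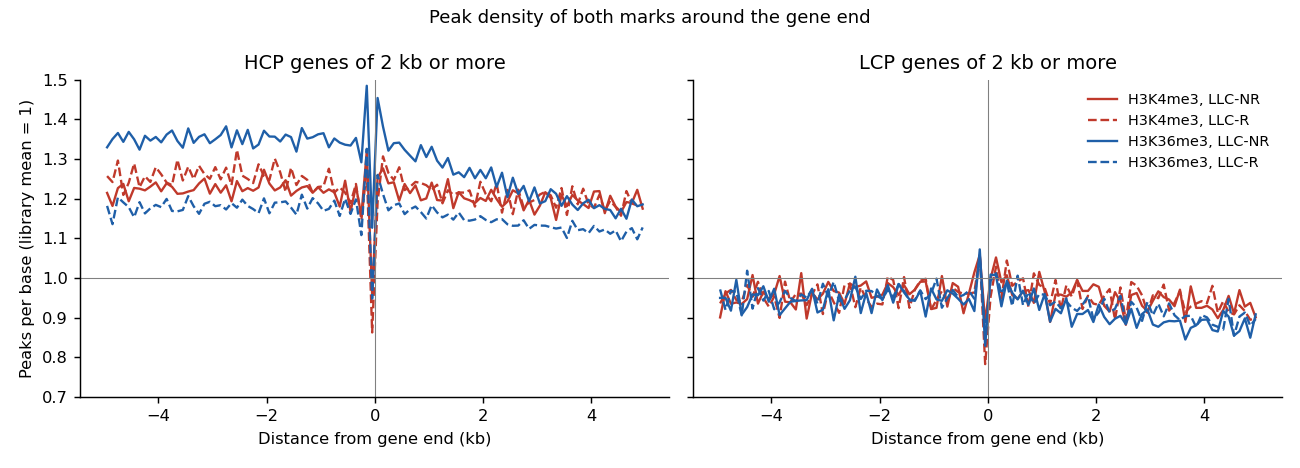
Peaks per base of H3K4me3 (red) and H3K36me3 (blue) in LLC-NR (solid) and LLC-R (dashed) from 5 kb before to 5 kb past the gene end, in bins of 100 bp without averaging, for HCP genes (left) and LCP genes (right) of 2 kb or more, with the mean of each library at 1. H3K36me3 of LLC-NR was the highest library in HCP genes before the end (1.34) and lay close to H3K4me3 from 4 to 5 kb past it (1.17 against 1.19), and all 4 libraries had a narrow gap in the last 0.1 kb.

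The windows of 500 bp around single TSSs showed the contrast as counted, gene by gene. These numbers were not corrected for G+C, and under that correction H3K36me3 at HCPs lay above its mean. Over all genes, no H3K4me3 peak lay within 250 bp of the TSS in both lines in 1365 genes, or 6.37%, and no H3K36me3 peak in 1948, or 9.1%. Among HCP genes, H3K4me3 was missing in 188 and 252 genes, and H3K36me3 in 5013 and 1548. In LCP genes the numbers were 1642 and 1607 for H3K4me3 and 1575 and 789 for H3K36me3. An H3K4me3 peak in both lines with no H3K36me3 peak in either was found for 960 genes, or 4.48% of all, of which 919 were HCP genes (7.85% of that class) and 20 LCP genes (0.33%). The opposite, an H3K36me3 peak in both lines with no H3K4me3 peak in either, was found for 234 genes (1.09%), of which 9 were HCP genes (0.0769%) and 166 LCP genes (2.74%). Windows empty of both marks include sequence that short reads cannot map uniquely, and how many do was not tested.

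Most H3K36me3 peaks found at the TSS of HCP genes lay on a nucleosome position that also had an H3K4me3 peak. Within 250 bp of the TSS of HCP genes, 77.0% of the H3K36me3 peaks of LLC-NR and 71.2% of those of LLC-R had an H3K4me3 peak midpoint within 73 bp, against 45.3% and 42.8% over all chromosomes. Of the H3K4me3 peaks there, 27.3% and 51.5% had an H3K36me3 peak within that distance, against 51.3% and 65.8% over all chromosomes. Between lines, 75.7% of the H3K4me3 peaks of LLC-NR at these TSSs had an H3K4me3 peak of LLC-R within 73 bp, against 45.7% over all chromosomes, and for H3K36me3 it was 64.0% against 67.7%. For H3K4me3 the share between the tumors was thus higher at these TSSs than over all chromosomes, and for H3K36me3 it was not. These shares move with the density of the library looked up, which for H3K4me3 is higher at HCPs, and its part was not tested.

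Across genes, more H3K4me3 at the TSS went with more H3K36me3 in the body. HCP genes of 10 kb or more with 0 to 2 H3K4me3 peaks in the promoter had a mean H3K36me3 level of 0.61 in the body in LLC-NR and 0.627 in LLC-R. With 3 to 4 peaks it was 1.08 and 1.12, with 5 to 6 peaks 1.33 and 1.17, and with 7 or more peaks 1.42 and 1.19. Within 250 bp of the TSS, the H3K36me3 level of the 4 groups was 0.312, 0.568, 0.549 and 0.545 for LLC-NR, against 0.410, 0.80, 0.775 and 0.771 for LLC-R. It was thus lowest in the first group, like the body level, but was not higher with more than 3 to 4 peaks. Spearman's rho over the 12896 genes between the H3K4me3 peaks of the first 2 kb and the H3K36me3 level of the body was 0.615 and 0.538, and with the H3K36me3 peaks within 250 bp of the TSS it was -0.12 and -0.10. Genes are not independent replicates, and the values of a gene share its base composition and how uniquely reads map to it.

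For single genes, the log2 ratio of the first 2 kb was set against that of the body, with 1 peak per 2 kb added to each number. A gene was called where the ratio was at least 1.5-fold higher at the TSS than in the body in both lines, or at least 1.5-fold lower in both. A call thus speaks of the difference between the regions and not of the sign of the ratio in either. Of 12896 genes, 3806 (29.5%) were called with the higher ratio of H3K4me3 to H3K36me3 at the TSS, and 49 (0.38%) with the higher ratio in the body. The first number was 2049 with the correction for G+C and 6120 without the H3K36me3 library of LLC-R. The share was 40.5% among HCP genes (3467 of 8558), 11.8% among ICP genes and 4.57% among LCP genes (109 of 2383). Within HCP genes it was 33.0% at 10 to 30 kb, 45.2% at 30 to 100 kb and 48.0% at 100 kb or more, and within LCP genes 4.74%, 5.04% and 2.1%. The median difference was 0.91 and 0.56 in HCP genes, and 0.12 and 0.07 in LCP genes. Single genes hold few peaks in 2 kb, so 1 or 2 peaks move the value of a gene, and longer bodies are counted more precisely.

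The 10 called HCP genes of 20 kb or more with the largest difference had 1.66 or more on the log2 scale in both lines. They were chosen for this value, which is a description. Cpeb2, an RNA-binding protein that acts on cytoplasmic polyadenylation elements and whose promoter sequence is given above, had 10 and 10 H3K4me3 peaks in the first 2 kb, and 2 and 1 H3K36me3 peaks. Its body held 2.48 and 2.28 H3K4me3 peaks per kb and 3.59 and 4.17 H3K36me3 peaks per kb, against library means of 2.26 and 2.26 and of 2.56 and 3.47. The log2 ratio of its body was -0.28 and -0.13, so the order of the marks was turned between the regions in both lines. Ssbp2, a cofactor of LIM-domain transcription factors, had 8 and 8 H3K4me3 peaks against 1 and 2 H3K36me3 peaks at the TSS, and 2.53 and 2.26 against 2.80 and 3.67 per kb in the body. With the added peaks its log2 ratio in the body was 0.05 and 0.03. As counted in LLC-R, H3K4me3 was at its library mean of 2.26 and H3K36me3 above its mean of 3.47, so the sign there depended on the added peaks. Axin2, a scaffold of the complex that degrades beta-catenin, had 10 and 9 against 2 and 3 at the TSS. In Chd7, a chromatin remodeler, the peaks numbered 11 and 8 against 4 and 3, and in Nsun2, an RNA methyltransferase, 9 and 8 against 1 and 3. The others were Bbx, 8430427H17Rik, Anp32b, Ube2q2 and Ddhd1. In all 10, the H3K4me3 peaks of the first 2 kb numbered 8 or more in both libraries and those of H3K36me3 4 or fewer.

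The 5 called LCP genes with the largest difference were Kng2, Cul1, C1rb, Sorbs3 and Gm17067. Cul1, the scaffold of SCF ubiquitin ligases, had 9 and 10 H3K4me3 peaks in the first 2 kb and 3 and 7 H3K36me3 peaks, and 2.97 and 2.48 against 3.94 and 4.22 per kb in the body. Sorbs3, which encodes the adhesion protein vinexin, had 8 and 9 against 3 and 7. Both thus had as many H3K4me3 peaks as the HCP genes despite their class. Kng2, a kininogen gene whose upstream sequence is given above, had 4 and 2 against 1 and 1, so its difference rests on 1 to 4 peaks. The 5 genes with the most negative difference were 2900092C05Rik, Cyp2b9, Nlrp9b, Fbxw22 and C87414, all LCP genes with 0 to 3 H3K4me3 peaks in the first 2 kb. Cyp2b9, a cytochrome P450, had 0 and 0 against 1 and 5, and Nlrp9b 1 and 1 against 5 and 6. Most of these belong to multigene families with near-identical copies, where only uniquely mapped reads were kept, so their values are uncertain.

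Lists of genes were followed from TSS to body. Of the writers and readers of H3K4me3 and H3K36me3, 28 of 29 were found, 23 of them with an HCP. Of the 26 of 10 kb or more, 12 were called with the higher ratio at the TSS, against 29.5% of all genes and 40.5% of HCP genes, and 0 with the higher ratio in the body. Their median difference was 1.04 and 0.60, against 0.74 and 0.44 over all genes. Dnmt3a, a DNA methyltransferase that binds methylated H3K36, had the largest difference of the list, with 10 and 10 H3K4me3 peaks against 2 and 5 H3K36me3 peaks in the first 2 kb, and 2.69 and 3.23 against 3.89 and 4.27 per kb in the body. Setd2, the H3K36 trimethylase, had 10 and 9 against 6 and 8 at the TSS and 3.16 and 3.18 against 4.26 and 4.26 per kb in the body, and it missed the call with 0.52 in LLC-R. Ash1l, another methyltransferase of H3K36, had 5 and 6 against 8 and 10 at the TSS, with a difference of -0.11 and -0.25. The other called members included Mll1, Mll3 and Mll5 of the MLL family, the methyltransferases Setd1b, Nsd1 and Whsc1l1, the demethylases Kdm5a and Kdm2a, and Zmynd11, a reader of H3K36me3.

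Among genes of RNA polymerase II initiation and elongation, 23 of 26 were found, all 23 with an HCP, and 6 of the 19 of 10 kb or more were called, against 29.5% of all genes and 40.5% of HCP genes. Polr2a, the largest subunit, had 8 and 10 H3K4me3 peaks against 6 and 7 H3K36me3 peaks at the TSS and 3.05 and 3.11 against 4.02 and 4.17 per kb in the body. Aff4, a scaffold of the super elongation complex, had 10 and 10 against 3 and 7. Ccnh, the cyclin of the kinase of TFIIH, had 8 and 6 against 7 and 10, and it was not called. Of 22 housekeeping genes found, 10 were of 10 kb or more and 5 of these were called, against the same shares. Ywhaz, an adaptor of the 14-3-3 family, had 9 and 9 against 2 and 4 at the TSS and 3.25 and 3.46 against 4.21 and 4.37 per kb in the body. Tbp, the TATA-binding protein, had 8 and 7 against 8 and 8 at the TSS. Actb, too short for a body, had 9 and 9 H3K4me3 peaks against 5 and 7 H3K36me3 peaks in the first 2 kb.

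Genes of other tissues had fewer H3K4me3 peaks at the TSS and fewer H3K36me3 peaks in the body than the lists above. The 18 neuronal genes had 5.0 and 5.56 H3K4me3 peaks per gene in the first 2 kb, against 8.43 and 8.36 in the writers and readers, and 2.49 and 3.58 H3K36me3 peaks per kb of body, against 3.88 and 4.22. The mean of the libraries was 2.56 and 3.47 H3K36me3 peaks per kb. Of the 18, 2 were called, against 29.5% of all genes, and the median difference was 0.34 and 0.27, against 0.74 and 0.44 over all genes. Dpp6 had 0 and 4 H3K4me3 peaks against 7 and 8 H3K36me3 peaks in the first 2 kb, so the lines differed there. The 17 liver and muscle genes had 4.65 and 4.47 H3K4me3 peaks in the first 2 kb and 2.83 and 3.77 H3K36me3 peaks per kb of body. Of these genes, 12 were of 10 kb or more and 0 were called, against 29.5% of all genes and 4.57% of LCP genes, with a median difference of -0.13 and 0.02. Alb, the albumin gene, had 4 and 5 against 6 and 9 at the TSS and 2.99 and 2.15 against 3.36 and 4.01 per kb in the body. Only 1 of these 17 genes had an HCP, against 9 of 18 neuronal genes, so the difference between the lists cannot be told apart from their CpG content. Few H3K36me3 peaks in the body were not particular to genes of other tissues. Endothelial markers had 2.66 and 3.73 per kb, leukocyte markers 2.97 and 3.38, fibroblast markers 3.24 and 4.08 and epithelial markers 2.96 and 3.96. Their H3K4me3 peaks in the first 2 kb numbered 5.71 and 6.57, 7.9 and 6.8, 7.25 and 5.9, and 6.9 and 7.25 per gene.

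Smad3, Ptk2, Nfkb1, Mapk9 and Mmp9 were measured by ChIP-qPCR in the same tumors, for which they were chosen. Of these 5 genes 2 were called, against 29.5% of all genes. Mapk9, the kinase JNK2, had 9 and 8 H3K4me3 peaks against 6 and 6 H3K36me3 peaks at the TSS and 2.39 and 2.77 against 4.15 and 4.38 per kb in the body. Smad3, a signal carrier of TGF-beta, had 8 and 9 against 4 and 7 and 2.64 and 2.78 against 3.54 and 4.14 per kb. Mmp9, a matrix metalloproteinase with an LCP, had 5 and 5 against 5 and 8 at the TSS. Among markers of host and carcinoma cells, 2 of 5 leukocyte genes of 10 kb or more were called, 1 of 7 endothelial genes and 0 of 6 fibroblast genes, and 1 of 2 epithelial genes, against 29.5% of all genes, 40.5% of HCP genes and 4.57% of LCP genes. Csf1r, the receptor of macrophage colony-stimulating factor, had 9 and 9 against 4 and 7 at the TSS and 2.32 and 2.83 against 3.11 and 4.26 per kb in the body, although it has an LCP. Epcam, an epithelial adhesion molecule, had 9 and 9 against 4 and 4 and 2.67 and 2.76 against 3.36 and 3.75 per kb. Pecam1, of endothelial cells, had 6 and 6 against 5 and 7, and Col1a1, of fibroblasts, had 7 and 8 against 4 and 9.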

How the data were processed

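Chromatin of isografts was digested with micrococcal nuclease, precipitated and sequenced. Per the labels, reads were mapped to mm9 with Bowtie 0.12.7. Only reads with a unique place and at most 2 mismatches were kept by the authors, and GeneTrack was run per library with settings not given in the sources used here. The deposited files give only the start and end positions of nucleosome-sized peaks, so depth is known only as the number of peaks.

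A peak was counted by its midpoint on chromosomes 1 to 19, as a share of the library's peaks. Genes came from GENCODE vM1 and sequence from NCBIM37. Each gene had the TSS of most of its transcripts. The handover was read from 100-bp bins, averaged over 5 bins and holding 200 genes or more, downstream of the highest ratio between 1 kb upstream and 3 kb downstream. The G+C correction used 50-bp tiles 10 kb or more from any gene and G+C in 500 bp. Genes were called by fold in both lines, with no p-value, since there is 1 library per line and mark. Genes named are the first member of each list and those with the largest and smallest difference, the 10 HCP and 5 LCP genes of 20 kb or more with the largest difference and the 5 with the most negative one, given 10 or more body peaks of each library. Genes described beside these were named after their values were seen. A gene that the rule selects is not reported here. The comparison, the classes and the gene lists were chosen with earlier results of these data known. The functions were tested on simulated data with known handovers. Alternatives left out 1 library, or changed the counting of peaks, the TSS, the genes, the scaling, the bins, the thresholds or the base composition. The work was done in Python 3.11.15 with SciPy 1.17.1, NumPy 2.4.6, Matplotlib 3.10.9 and pandas 2.3.3.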

Additional observations from a re-analysis of the deposited data

Results flagged for a closer look

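In the 5 kb past the end of HCP genes the log2 ratio of H3K4me3 to H3K36me3 shares lay below 0 for LLC-NR, at -0.0338, and above 0 for LLC-R, at 0.0872. It stands out because the lines lay on opposite sides of 0, and the difference was not tested, with 1 library per line and mark. Isolated genes, with no other protein-coding gene within 5 kb, lay below 0 in both lines over all classes. Their ratio was -0.035 and -0.015, against 0.001 and 0.064 over all genes. The part of neighboring genes in the HCP values was not tested.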

How the results depend on the processing

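The promoter ratio (0.66) and the body ratio (-0.098) kept their direction under every alternative run for them, and without 1 library they ranged from 0.56 to 0.76 and from -0.15 to -0.051. The ratio past the gene end, 0.033, was -0.025 in isolated genes and -0.0099 corrected for G+C. Most crossings of 0 moved with some setting. Without 1 library, the crossing ranged from 4.48 to 10.3 kb in HCP genes, from 6.25 to 9.92 kb in ICP genes, from 5.34 to 9.03 kb in genes of 5 to 10 kb (none without H3K36me3 of LLC-NR), from 4.44 to 8.80 kb in genes of 30 to 100 kb and from 4.15 to 6.43 kb in genes of 100 kb or more, and the called genes from 3715 to 6120, the latter without H3K36me3 of LLC-R. In ICP genes the crossing (8.81 kb) was 6.23 kb in isolated genes, 6.22 kb as a share of distal peaks, 6.19 kb corrected for G+C, 6.34 kb without chromosomes 5, 15, 16, 18 and 19, and 5.92 kb in genes whose TSSs lie within 500 bp, where LCP genes gave 4.54 kb. In genes of 5 to 10 kb (7.20 kb) these settings gave 6.84, 6.40, 4.86, 7.20 and 6.33 kb, counting peak bases gave 7.23 kb, the most upstream TSS 8.31 kb and bins of 50 bp averaged over 20 bins 8.10 kb. In genes of 100 kb or more (5.35 kb) the most upstream TSS gave 6.11 kb, the 50-bp bins 5.74 kb and TSSs within 500 bp 5.15 kb. Read midway, the handover lay at 1.12 kb in all genes, 0.823 kb in HCP, 1.97 kb in ICP, 2.01 kb in LCP, and 1.05, 0.903 and 0.911 kb in genes of 5 to 10 kb, 30 to 100 kb and 100 kb or more, and corrected for G+C at 2.03 kb in all genes, 1.86 kb in HCP, 2.37 kb in ICP, 1.99 kb in LCP, and 1.68, 1.97 and 2.03 kb. The 3806 called genes became 1758 among isolated genes and 1516 among genes with TSSs within 500 bp, where fewer genes were counted, 2049 corrected for G+C and 660 at 2-fold. The restriction to TSSs within 500 bp and the corrected midway reading were chosen after seeing the data. Read at 0, the mean of the lines had no crossing upstream of the TSS or in genes of 2 to 5 kb in any setting; in isolated genes of 2 to 5 kb LLC-R alone crossed at 3.91 kb. Peaks could not be filtered by height, which the files do not hold. The ratios pair the libraries by line, while the permutation test of the promoter shares does not, and no paired test was run on the 2 lines. Where a result moved, the cause was not tested.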
